A study of Arabidopsis with 8 samples.

Results

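Roots of OE-SAUR41 seedlings, a line of Arabidopsis thaliana that overexpresses SAUR41, were compared with roots of Col-0 seedlings, the wild type. The comparison took the 4 root libraries of the 8 in the series by their titles, 2 of OE-SAUR41 roots and 2 of Col-0 roots, and the other 4 libraries held shoots of the same genotypes. All seedlings were 5 days old; RNA was taken up in TRIzol and read on an Illumina HiSeq. The construct, its promoter and the number of independent lines behind OE-SAUR41 were not given in the sources used here. No label states that libraries within a group had separate cultures as their source. The p-values therefore cover only the spread among these samples, and that spread may be technical.

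SAUR41 belongs to the SMALL AUXIN UP RNA genes, which encode small proteins first known from transcripts that accumulate soon after auxin treatment. SAUR proteins are known to inhibit D-clade PP2C phosphatases, and these phosphatases switch off the plasma membrane proton pumps that acidify the cell wall during growth. A second system matters for the results below. In iron-deficient roots, IRONMAN peptides and bHLH transcription factors turn on a ferric reductase, the iron transporter IRT1, coumarin secretion and nicotianamine synthesis.

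Values were deposited as FPKM, fragments scaled to transcript length and library size, which can be compared between genes. The root libraries listed 22487 to 23028 genes each, with summed values of 605751 to 672754 FPKM. Read depth is unknown, because no counts were given. Of 24770 genes listed in at least 1 root library, 18886 reached 1 FPKM in at least 2 of the 4 and were tested on log2(FPKM + 1), a scale that shrinks the change of lowly expressed genes. The OE-SAUR41 libraries differed from each other by at least 2-fold at 389 of these genes, and the Col-0 libraries at 238. OE-SAUR41 root 1 stood at least 2-fold above the 3 other root libraries at 39 genes, against 4 to 9 genes for each of the others. Root identity was checked against marker genes. Photosynthesis genes, 22 in all, summed to 266 and 318 FPKM in OE-SAUR41 roots and 392 and 333 FPKM in Col-0 roots, against 72140 FPKM or more in every shoot library. Endodermis markers summed to 904 and 916 FPKM in OE-SAUR41 roots and 950 and 896 FPKM in Col-0 roots, and the 4 seed storage genes to 0 in both OE-SAUR41 root libraries and 0.0999 and 0.0742 FPKM in Col-0 roots.

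SAUR41 (AT1G16510, chromosome 1, 5644572 to 5645443, TAIR10) had 7996 and 4670 FPKM in OE-SAUR41 roots, against 4.64 and 7.46 FPKM in Col-0 roots. Both OE-SAUR41 libraries lay far above both Col-0 libraries, with a log2 fold change of 9.79 on that scale (SE 0.27, limma adjusted p = 2.43e-06). The gene rose, as its label states, and the call held in all 15 alternatives run. The genes on either side of it did not follow. AT1G16500 had 4.98 and 7.02 FPKM in OE-SAUR41 roots and 6.16 and 8.65 FPKM in Col-0 roots, and AT1G16520 had 17.7 and 17.9 FPKM in OE-SAUR41 roots and 20.5 and 21.0 FPKM in Col-0 roots (log2 fold changes -0.26 and -0.21, limma adjusted p = 1.00 for each).

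Among its 3 closest relatives, SAUR72 had 8.16 and 10.2 FPKM in OE-SAUR41 roots, against 20.2 and 18.8 FPKM in Col-0 roots. The groups did not overlap, but its log2 fold change, -1.02 with an SE of 0.17, did not pass (limma adjusted p = 0.243). SAUR71 and SAUR40 were below the filter, at 0.442 FPKM or less in all 4 libraries. SAUR genes are close in sequence, and the treatment of reads that match several of them was not given in the sources used here.

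Phosphatases and pumps through which SAUR proteins are known to act come next. None of the 9 D-clade PP2C genes and none of the 5 proton pump genes passed the test; over all genes 0.0424% passed. AT5G66080 (APD9 in RefSeq) had 11.3 and 9.32 FPKM in OE-SAUR41 roots, against 6.32 and 6.18 FPKM in Col-0 roots (log2 fold change 0.63, SE 0.19, limma adjusted p = 0.761). AT5G02760 (APD7) had 1.23 and 1.19 FPKM in OE-SAUR41 roots, against 0.479 and 0.30 FPKM in Col-0 roots (0.67, SE 0.23, limma adjusted p = 0.862). AT5G02760 passed the filter through its OE-SAUR41 libraries alone, and it shares its locus with another gene in the files. Both OE-SAUR41 libraries were above both Col-0 libraries for AT5G66080, AT5G02760 and AT3G17090, and below them for AT5G06750. The other 5 overlapped. Over all genes 11.5% lay above and 19.8% below. AHA2, the main proton pump of the root, had 732 and 901 FPKM in OE-SAUR41 roots and 884 and 1139 FPKM in Col-0 roots, and the groups overlapped. All 5 pump genes had negative values, from -0.30 to -0.04, with a median of -0.09 against -0.03 for all genes tested. AHA3 and AHA11 lay lower with groups apart before scaling, beside 19.8% of all genes, and no pump gene stayed apart after TMM scaling.

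Across all genes, limma called 8 of 18886 (0.0424%), 2 higher (0.0106%) and 6 lower (0.0318%) in OE-SAUR41 roots. An unadjusted p under 0.05 was found for 905 genes (4.79%), 290 higher (1.54%) and 615 lower (3.26%). Both OE-SAUR41 libraries lay above both Col-0 libraries for 2165 genes (11.5%) and below them for 3747 (19.8%). After TMM scaling these shares were 16.1% and 16.8%, so the split between higher and lower genes depended on the scaling. The number of calls depended on the model. Only SAUR41 was called with no filter, with quantile normalization, without a trend of the variance with level, or with all 8 libraries in the fit. With 1 library left out, its partner stood alone in its group, and the 8 genes kept their direction each time.

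**Figure D1:**
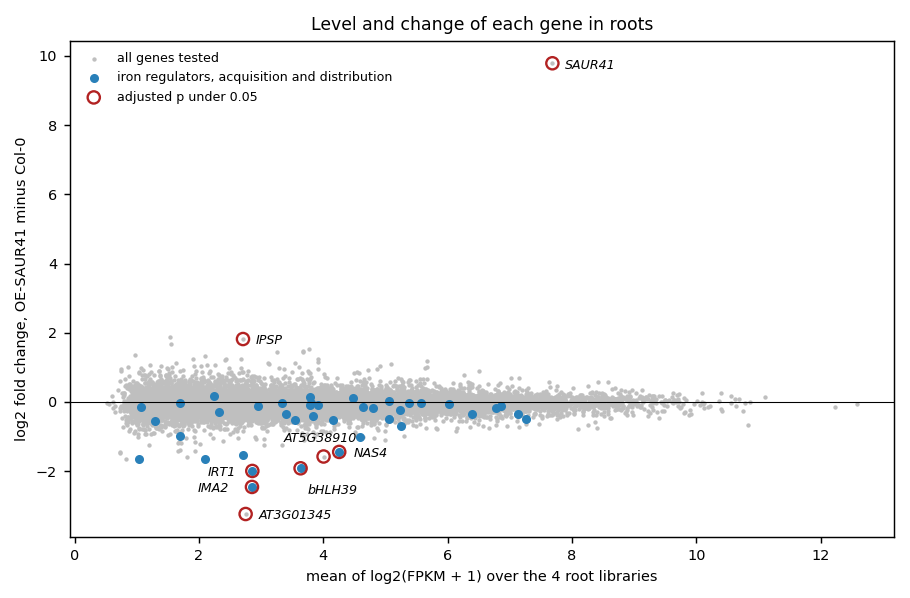
Each point is 1 of the 18886 genes tested, with its mean log2(FPKM + 1) over the 4 root libraries on the x axis and its log2 fold change, OE-SAUR41 minus Col-0, on the y axis. SAUR41 stands alone at 9.79, IPSP at 1.82, and the 6 lower calls lie between -3.24 and -1.45, 4 of them iron genes.

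Of the 8 called genes, 4 belong to the iron deficiency system (bHLH39, IMA2, IRT1 and NAS4), 1 is SAUR41, and 3 lie outside both. IPSP (AT5G04120, chromosome 5, 1120003 to 1121775), of the phosphoserine route of serine synthesis, was the other gene that rose. It had 11.1 and 11.5 FPKM in OE-SAUR41 roots, against 2.16 and 2.84 FPKM in Col-0 roots, a log2 fold change of 1.82 (SE of 0.21, limma adjusted p = 0.0343). The other 5 tested genes of that route stayed between 0.02 and 0.23, and none passed.

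AT3G01345 (chromosome 3, 129138 to 130749) fell most. It had 1.18 and 1.2 FPKM in OE-SAUR41 roots, against 28.3 and 13.6 FPKM in Col-0 roots (log2 fold change -3.24, SE 0.31, limma adjusted p = 0.0173). Col-0 root 1 was the highest library, and both Col-0 libraries were far above both OE-SAUR41 libraries. Its neighbours in locus order had smaller values, with -0.07 for SEC13A and -0.68 for NPF5.9, and neither passed. AT5G38910 (chromosome 5, 15578811 to 15579584) had 8.43 and 8.14 FPKM in OE-SAUR41 roots, against 26.2 and 27.3 FPKM in Col-0 roots (-1.58, SE 0.15, limma adjusted p = 0.0173). Replicates were tight in both groups. The next gene listed on the chromosome, AT5G38940, had 4.22 and 6.83 FPKM in OE-SAUR41 roots and 9.71 and 9.82 FPKM in Col-0 roots (-0.75, limma adjusted p = 0.794). The reference table gives no gene name for AT3G01345, AT5G38910 or AT5G38940.

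**Figure D2:**
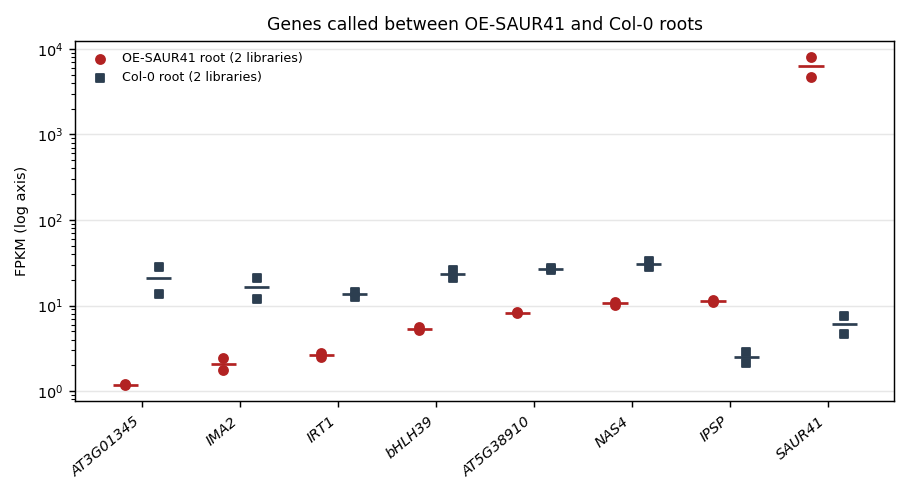
FPKM on a log axis for the 8 called genes, with the 2 OE-SAUR41 root libraries as circles left of the 2 Col-0 root libraries as squares, and a line at each group mean. The libraries of the groups do not overlap for any of the 8 genes.

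The iron deficiency regulators come first in the pathway. Of 17 listed members 14 were tested, and 2 were called lower, IMA2 and bHLH39, beside 0.0318% of all genes. IMA2 (AT1G47395, chromosome 1, 17383034 to 17383408), an IRONMAN peptide that promotes iron uptake, had 2.41 and 1.79 FPKM in OE-SAUR41 roots, against 12.1 and 20.9 FPKM in Col-0 roots (log2 fold change -2.46, SE 0.27, limma adjusted p = 0.0318). Its tandem copy IMA1 (AT1G47400) had 3.26 and 2.50 FPKM in OE-SAUR41 roots, against 9.04 and 11.4 FPKM in Col-0 roots (-1.53, SE 0.22, limma adjusted p = 0.124). The groups lay apart for both peptides. Reads may be shared between the copies, so their sum is the safer quantity; it was 5.67 and 4.29 FPKM in OE-SAUR41 roots, against 21.1 and 32.3 FPKM in Col-0 roots, 5.37-fold lower by the means. IMA3 was below the filter, at 0.698 FPKM or less.

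bHLH39 (AT3G56980, chromosome 3, 21086546 to 21087494), which acts with FIT to switch on iron uptake genes, had 5.57 and 5.20 FPKM in OE-SAUR41 roots, against 20.8 and 25.7 FPKM in Col-0 roots (log2 fold change -1.92, SE 0.18, limma adjusted p = 0.0173). bHLH38, its tandem neighbour in the same subgroup, had 1.62 and 1.2 FPKM in OE-SAUR41 roots, against 5.28 and 8.11 FPKM in Col-0 roots (-1.66, SE 0.25, limma adjusted p = 0.171). Summed, the pair had 7.19 and 6.40 FPKM in OE-SAUR41 roots and 26.1 and 33.8 FPKM in Col-0 roots, 4.41-fold lower by the means. The related bHLH100 and bHLH101 were below the filter, at 0.658 FPKM or less in all 4 libraries.

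FIT, the root factor that partners these bHLH proteins, had 29.6 and 24.6 FPKM in OE-SAUR41 roots, against 37.4 and 39.5 FPKM in Col-0 roots. The groups did not overlap, and its log2 fold change was -0.50 (SE 0.15), with an adjusted p of 0.744 in limma, smaller in size than those of its partners. Upstream factors were closer to 0. bHLH104, ILR3, bHLH34, BHLH121 and PYE had values from -0.12 to -0.02, and their libraries overlapped. BTS, a ubiquitin ligase that restrains the response, had 25.3 and 20.3 FPKM in OE-SAUR41 roots and 22.8 and 27.5 FPKM in Col-0 roots (-0.14), and also overlapped. AT1G74770 (-0.52) and bHLH115 (-0.34) had libraries that lay apart and did not pass. All 14 tested regulators had negative values, 7 with groups that did not overlap, beside 19.8% lower over all genes, and the median was -0.24 against -0.03 for all genes tested.

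Of the uptake genes 1 was called lower, beside 0.0318% of all genes. This was IRT1 (AT4G19690, chromosome 4, 10707426 to 10709015), the main ferrous iron transporter of the root epidermis. It had 2.76 and 2.50 FPKM in OE-SAUR41 roots, against 14.3 and 12.7 FPKM in Col-0 roots (log2 fold change -2.0, SE 0.20, limma adjusted p = 0.0173). It was also called with the gene span correction, which kept no other gene but SAUR41. Its chromosomal neighbour IRT2, a related transporter of internal membranes, had 3.09 and 4.0 FPKM in OE-SAUR41 roots, against 4.63 and 4.44 FPKM in Col-0 roots (-0.29, SE 0.22, limma adjusted p = 1.00).

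FRO2, the ferric reductase that supplies IRT1, had 1.23 and 1.38 FPKM in OE-SAUR41 roots, against 3.03 and 4.16 FPKM in Col-0 roots (log2 fold change -0.99, SE 0.23, limma adjusted p = 0.536). CYP82C4, which hydroxylates coumarins, had 0.139 and 0.194 FPKM in OE-SAUR41 roots, against 2.69 and 2.57 FPKM in Col-0 roots (-1.64, SE 0.22, limma adjusted p = 0.115). It passed the filter through its Col-0 libraries alone. F6'H1, the enzyme that starts coumarin synthesis, was abundant, with 68.9 and 77.7 FPKM in OE-SAUR41 roots, against 100.5 and 88.2 FPKM in Col-0 roots (-0.36, SE 0.14, limma adjusted p = 0.970). Libraries overlapped for PDR9, a coumarin exporter (-0.16), for NRAMP1, a manganese and iron transporter (-0.11), and for BGLU42 (0.14). Of 10 tested uptake genes, 6 had OE-SAUR41 libraries below Col-0 libraries and none above, and the median was -0.33. Over all genes 19.8% lay below and 11.5% above. After TMM scaling 6 of the 10 lay below and 1 above, beside 16.8% and 16.1%.

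Nicotianamine synthases make the chelator that moves iron within the plant. NAS4 (AT1G56430, chromosome 1, 21136944 to 21138087) fell, with 10.3 and 10.9 FPKM in OE-SAUR41 roots, against 28.3 and 32.9 FPKM in Col-0 roots (log2 fold change -1.45, SE 0.16, limma adjusted p = 0.0299). NAS2 had 25.8 and 31.9 FPKM in OE-SAUR41 roots, against 49.5 and 45.0 FPKM in Col-0 roots (-0.70, limma adjusted p = 0.388). NAS1, the most abundant, had 113 and 145 FPKM in OE-SAUR41 roots, against 177 and 184 FPKM in Col-0 roots (-0.49, limma adjusted p = 0.844). Groups lay apart for all 3, while NAS3 was listed at 0 in all 4 libraries. Together NAS1, NAS2 and NAS4 summed to 149 and 188 FPKM in OE-SAUR41 roots and 255 and 262 FPKM in Col-0 roots.

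OPT3, a phloem transporter of iron signalling between shoot and root, had 15.1 and 17.1 FPKM in OE-SAUR41 roots, against 29.8 and 37.4 FPKM in Col-0 roots (log2 fold change -1.01, SE 0.16, limma adjusted p = 0.200). FRO3, a mitochondrial ferric reductase, had -0.52, MTP3, a vacuolar zinc transporter of iron-deficient roots, had -0.42, and ZIF1, which loads nicotianamine into the vacuole, had -0.35; their groups lay apart and they did not pass. Xylem loading genes stayed near 0. FRD3, a citrate exporter, had 34.0 and 31.3 FPKM in OE-SAUR41 roots and 31.9 and 31.5 FPKM in Col-0 roots (0.04), and FPN1 had -0.03. Over 15 tested members of this list, 9 had OE-SAUR41 libraries below Col-0 libraries and none above, beside 19.8% and 11.5% of all genes, and the median was -0.23. TMM scaling left 8 below and 1 above, beside 16.8% and 16.1%.

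Of 7 tested iron storage genes, 5 had positive and 2 negative values, and the libraries overlapped for 4. With groups apart 2 lay higher and 1 lower, beside 11.5% and 19.8% of all genes. FER1, the ferritin that accumulates with iron, had 99.9 and 93.5 FPKM in OE-SAUR41 roots, against 73.4 and 57.1 FPKM in Col-0 roots (log2 fold change 0.57, SE 0.15, limma adjusted p = 0.664). It shares its locus with another gene in the files, which makes its value uncertain. FER3 (0.33), FER4 (0.36) and FER2 (0.29) were also positive, with groups apart for FER3 alone, and the vacuolar transporter gene VTL5 had -0.24. Its relatives VTL1 (0.14) and VTL2 (-0.28) overlapped. The list median of 0.29 turned to -0.04 without Col-0 root 2, and no member passed.

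Counted over regulators, uptake and distribution, 22 of 39 tested genes had both OE-SAUR41 libraries below both Col-0 libraries and none had them above, beside 19.8% and 11.5% of all genes. After TMM scaling 21 lay below and 2 above, beside 16.8% and 16.1% of all genes. The members of these lists were chosen with earlier results of these data known, and genes that are low in 1 group passed the filter only through the other, so the count is a description. Other marker lists had negative medians as well. All 22 photosynthesis genes had negative values in roots, with a median of -0.33 and 9 with groups apart, and 5 after TMM scaling. Root hair and epidermis markers, the cells in which IRT1 and FRO2 are known to act, had a median of -0.15, with 5 of 14 lower and 1 higher; they summed to 199 and 230 FPKM in OE-SAUR41 roots and 222 and 213 FPKM in Col-0 roots, which overlapped. Their part in the iron result was not tested. In bulk roots, fewer cells of a type and less RNA per cell cannot be told apart.

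**Figure D3:**
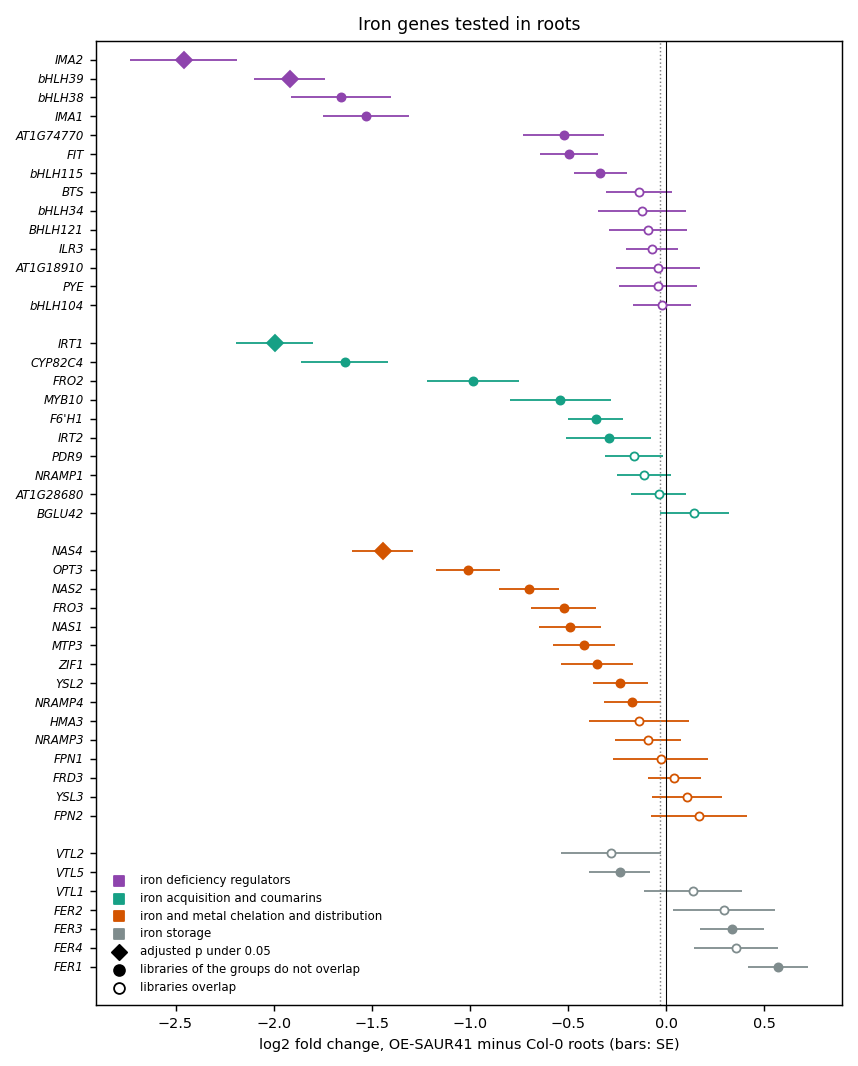
Log2 fold change, OE-SAUR41 minus Col-0 roots, of each tested iron gene with its SE, coloured by role; diamonds passed the test, and open circles mark genes whose libraries overlapped. The 4 diamonds lie between -2.46 and -1.45, upstream regulators from BTS to bHLH104 lie near 0, and the 4 ferritin genes lie between 0.29 and 0.57.

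Zinc and copper genes held no called member. CSD1, a copper/zinc superoxide dismutase, had 104 and 113 FPKM in OE-SAUR41 roots, against 162 and 202 FPKM in Col-0 roots (log2 fold change -0.74, SE 0.15, limma adjusted p = 0.356). CSD2 (-0.38) and the chaperone CCS (-0.40), which delivers copper to them, were lower with groups apart, as were the zinc transporter ZIP3 (-0.41) and the copper transporter COPT2 (-0.40). FSD1, the iron superoxide dismutase, had 508 and 658 FPKM in OE-SAUR41 roots and 619 and 420 FPKM in Col-0 roots, which overlapped. Of 18 tested genes, 9 were lower with groups apart and none was higher, beside 19.8% and 11.5% of all genes, and the median was -0.18. After TMM scaling 7 lay lower, beside 16.8%. CSD1 shares its locus with another gene in the files.

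The shoot libraries of the same genotypes were set beside the root values of the 8 called genes. IMA2 had 2.29 and 0.197 FPKM in OE-SAUR41 shoots, against 13.4 and 18.7 FPKM in Col-0 shoots, and AT3G01345 had 2.99 and 2.88 FPKM in OE-SAUR41 shoots, against 28.0 and 21.1 FPKM in Col-0 shoots. NAS4 had 11.1 and 10.2 FPKM in OE-SAUR41 shoots, against 16.9 and 26.0 FPKM in Col-0 shoots. For these 3 genes OE-SAUR41 shoots lay below Col-0 shoots, but none passed in shoots (limma adjusted p = 0.507 for IMA2, 0.293 for AT3G01345 and 0.724 for NAS4). SAUR41 itself had 10675 and 10248 FPKM in OE-SAUR41 shoots, against 4.93 and 8.29 FPKM in Col-0 shoots. bHLH39 was listed in neither OE-SAUR41 shoot library and had 0.692 and 1.41 FPKM in Col-0 shoots. IRT1 and IPSP were at 0.201 FPKM or less in every shoot library, and AT5G38910 was listed in none. The difference of the OE-SAUR41 effect between roots and shoots passed for 0 of 19863 genes in limma (948, or 4.77%, at an unadjusted p under 0.05), and for the 8 genes the limma adjusted p was 0.577 to 0.812. A difference between the tissues was therefore not shown.

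Cell wall and water channel genes were described for growth. None passed the test. XTH17, XTH18 and XTH19, xyloglucan endotransglucosylases of the elongating root, had the largest log2 fold changes among family members with groups apart. XTH18 had 142 and 108 FPKM in OE-SAUR41 roots, against 69.5 and 61.8 FPKM in Col-0 roots (log2 fold change 0.91, SE 0.16, limma adjusted p = 0.276). XTH19 had 114 and 85.6 FPKM in OE-SAUR41 roots, against 59.1 and 56.1 FPKM in Col-0 roots (0.77, limma adjusted p = 0.356), and XTH17 had 63.8 and 61.1 FPKM in OE-SAUR41 roots, against 40.4 and 38.4 FPKM in Col-0 roots (0.65, limma adjusted p = 0.304). The groups lay apart for all 3, and their sum was 1.77-fold higher by the means. Not all family members went this way. XTH31 had 77.5 and 91.3 FPKM in OE-SAUR41 roots, against 116 and 111 FPKM in Col-0 roots (-0.43, limma adjusted p = 0.852). XTH20 (-0.23) and XTH5 (-0.13) also had groups apart on the lower side. Of 20 tested XTH genes, 9 were higher and 3 lower with groups apart, where all genes gave 11.5% higher and 19.8% lower, and the median was 0.27.

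XTH22 and XTH23, which respond to touch, were highest in 1 library. XTH22 had 120 and 29.9 FPKM in OE-SAUR41 roots and 54.1 and 26.2 FPKM in Col-0 roots, and XTH23 had 45.1 and 16.9 FPKM in OE-SAUR41 roots and 22.7 and 13.2 FPKM in Col-0 roots. OE-SAUR41 root 1 held the highest value of both genes, and the groups overlapped. From the jasmonate and immune list, WRKY40 and JAZ1 were also highest in OE-SAUR41 root 1 with groups that overlapped. WRKY40, a factor induced by wounding and microbes, had 53.1 and 6.13 FPKM in OE-SAUR41 roots and 18.9 and 9.89 FPKM in Col-0 roots, and JAZ1, a jasmonate repressor, had 153 and 49.2 FPKM in OE-SAUR41 roots and 75.2 and 56.6 FPKM in Col-0 roots. Of the 12 tested members, 1 (JAZ10) lay higher and 2 (CYP81F2 and PAD3) lay lower with groups apart, beside 11.5% and 19.8% of all genes. The median of the list was 0.35 with all libraries, -0.14 without OE-SAUR41 root 1, and 0.71 when OE-SAUR41 root 2 was left out instead, so 1 library decided its sign.

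Aquaporins had 10 of 21 members with OE-SAUR41 libraries above Col-0 libraries and none below, against 11.5% above and 19.8% below over all genes, with a median of 0.24 that stayed between 0.11 and 0.41 in the alternatives. PIP2;3 had 97.8 and 76.9 FPKM in OE-SAUR41 roots, against 68.7 and 52.9 FPKM in Col-0 roots (log2 fold change 0.52, SE 0.18, limma adjusted p = 0.862). PIP1;5 had 103 and 107 FPKM in OE-SAUR41 roots, against 83.6 and 70.3 FPKM in Col-0 roots (0.45, limma adjusted p = 0.794). PIP2;1, among the most abundant plasma membrane channels, had 646 and 610 FPKM in OE-SAUR41 roots, against 572 and 435 FPKM in Col-0 roots (0.33, limma adjusted p = 1.00). The groups lay apart for all 3, and Col-0 root 2 was the lowest library each time. The tonoplast channels TIP1;1 and TIP1;2 overlapped.

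Cellulose synthesis genes were all 11 positive, from 0.00 to 0.44, 8 with OE-SAUR41 libraries above Col-0 libraries, which 11.5% of all genes had. These genes are long, with a median span of 5629 bp against 2414 bp for all genes tested. Their median log2 fold change was 0.20, and 0.15 with the gene span correction, which leaves out genes that share a locus. The part of span was not tested. The highest values were those of CESA7 (0.44), CESA4 (0.36) and CESA8 (0.36), the subunits of the secondary wall of vessels, and all 3 share their locus with another gene in the files. Of 7 vascular markers tested, 4 had positive and 3 negative values. With groups apart 4 lay higher and 2 lower, beside 11.5% and 19.8% of all genes. The higher ones included the protease genes XCP2 (0.45) and XCP1 (0.41) and the laccase gene LAC17 (0.38). ACL5, a thermospermine synthase of xylem precursors, went the other way, with 31.3 and 34.0 FPKM in OE-SAUR41 roots, against 48.8 and 49.2 FPKM in Col-0 roots (log2 fold change -0.57, SE 0.13, limma adjusted p = 0.476). Expansins, which loosen walls at low pH, had 5 of 13 lower and 1 higher with groups apart, beside 19.8% and 11.5% of all genes, and 3 lower after TMM scaling, beside 16.8%. EXPB1 had 21.9 and 20.9 FPKM in OE-SAUR41 roots, against 27.9 and 31.7 FPKM in Col-0 roots (-0.46, limma adjusted p = 0.810). Their median of -0.31 turned to 0.03 without OE-SAUR41 root 1.

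Among sugar carriers, SWEET11 and SWEET12, sucrose exporters of the phloem, had nearly the same values. SWEET11 had 12.8 and 12.7 FPKM in OE-SAUR41 roots, against 5.86 and 5.95 FPKM in Col-0 roots (log2 fold change 0.99, SE 0.18, limma adjusted p = 0.272). SWEET12 had 12.5 and 14.2 FPKM in OE-SAUR41 roots, against 6.78 and 6.11 FPKM in Col-0 roots (0.95, limma adjusted p = 0.297). SUC1, a sucrose importer, had 123 and 103 FPKM in OE-SAUR41 roots, against 160 and 174 FPKM in Col-0 roots (-0.56, limma adjusted p = 0.645). The groups lay apart for all 3 genes and none passed.

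**Figure D4:**
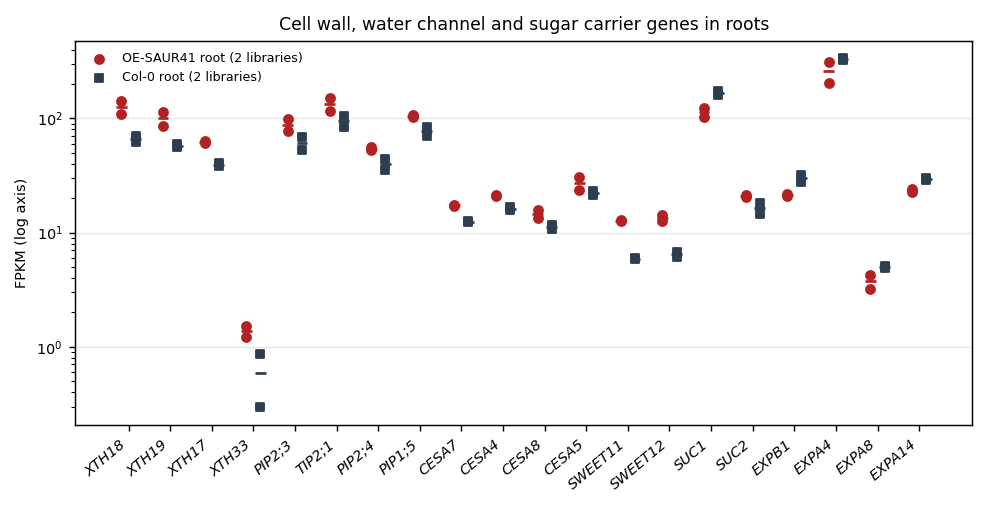
FPKM on a log axis for the members named from the XTH, aquaporin, cellulose, sugar carrier and expansin lists, with OE-SAUR41 root libraries as circles left of Col-0 root libraries as squares and a line at each group mean. XTH33, at 1.53 FPKM or less, and SWEET11, SWEET12 and XTH18 show the widest gaps, with OE-SAUR41 above, and the expansins and SUC1 lie the other way.

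Nitrate and ammonium uptake genes had 10 of 11 tested members with negative values, with a median of -0.26. With groups apart 4 lay lower and 1 higher, beside 19.8% lower and 11.5% higher of all genes. After TMM scaling 1 lay lower and 1 higher, beside 16.8% and 16.1% of all genes. The 1 positive member, NRT1.8, which unloads nitrate from the xylem, had 11.0 and 7.06 FPKM in OE-SAUR41 roots, against 4.56 and 2.11 FPKM in Col-0 roots (log2 fold change 1.24, SE 0.31, limma adjusted p = 0.620), and it shares its locus in the files. NRT3.1, the partner of high-affinity nitrate transporters, had 110 and 133 FPKM in OE-SAUR41 roots, against 179 and 200 FPKM in Col-0 roots (-0.64, limma adjusted p = 0.551). HKT1, a sodium transporter, had 9.86 and 7.12 FPKM in OE-SAUR41 roots, against 6.47 and 2.4 FPKM in Col-0 roots (0.90, SE 0.35, limma adjusted p = 0.971). The groups were apart for all 3. RNS1, a ribonuclease of phosphate starvation, had 0.99 from 3.45 FPKM or less, while the median was -0.07 for the 15 phosphate genes tested and 0.01 for the 10 sulfate genes.

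Auxin response genes, given the origin of the SAUR family, did not move together. Of 21 tested, 3 were higher and 5 lower with groups apart, beside 11.5% higher and 19.8% lower of all genes, no member passed, and the median was -0.07. IAA19 had 6.30 and 5.68 FPKM in OE-SAUR41 roots, against 4.83 and 3.6 FPKM in Col-0 roots (log2 fold change 0.43), and GH3.3, an auxin-conjugating enzyme, had 3.75 and 4.76 FPKM in OE-SAUR41 roots, against 5.74 and 7.36 FPKM in Col-0 roots (-0.52; limma adjusted p = 1.00 for each). Auxin carriers had 4 of 13 higher with groups apart and none lower, where all genes gave 11.5% and 19.8%, with values from -0.18 to 0.27 for ABCB19. No member passed in the lists for abscisic acid (median 0.13), ethylene (0.05), gibberellin and brassinosteroid (0.00), heat shock (0.00), glucosinolates (-0.13), flavonoids (-0.20), the clock (-0.04), the mitotic cycle (0.04) or the root tip (0.01). GASA14 (0.67) and CYP79F1 of glucosinolate synthesis (-0.86) had the largest values with groups apart in these lists.

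**Figure D5:**
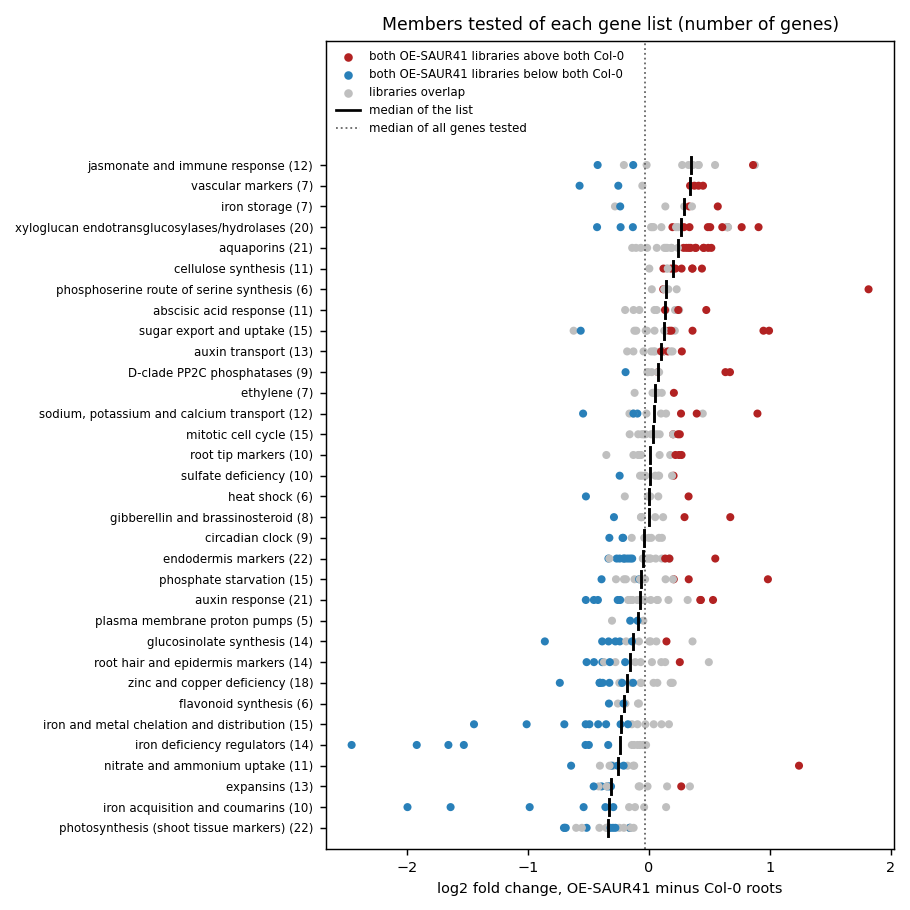
Log2 fold change, OE-SAUR41 minus Col-0 roots, of every tested member of 33 gene lists ordered by median, with red for genes whose OE-SAUR41 libraries both lie above both Col-0 libraries, blue for the reverse and grey for overlap. The points beyond -1 belong to the 3 lists of iron regulators, uptake and distribution, and the SAUR41 subfamily is left out for its scale.

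Beyond the lists, the largest values with groups apart were taken among genes with at least 5 FPKM in the higher group. MRN1, marneral synthase of a triterpene gene cluster, had 27.5 and 17.8 FPKM in OE-SAUR41 roots, against 8.45 and 5.94 FPKM in Col-0 roots (log2 fold change 1.52, SE 0.24, limma adjusted p = 0.200). TOM7-2, a subunit of the mitochondrial import pore, had 13.0 and 16.6 FPKM in OE-SAUR41 roots, against 4.18 and 5.41 FPKM in Col-0 roots (1.45, SE 0.21, limma adjusted p = 0.124). AT1G30730 had 23.7 and 20.8 FPKM in OE-SAUR41 roots, against 10.2 and 7.55 FPKM in Col-0 roots (1.25, limma adjusted p = 0.160). The groups lay apart for all 3. RPSL2 and NAD3 of the mitochondrial genome and their copies AT2G07675 and AT2G07751 on chromosome 2 had values from 1.21 to 1.46 (limma adjusted p = 0.356 to 0.638). Reads of the copies cannot be told apart, and NAD3 shares its locus in the files. Mitochondrial genes varied widely between replicates, with sums of 1650 and 2576 FPKM in OE-SAUR41 roots and 1044 and 4188 FPKM in Col-0 roots. Of 57 tested, 50 overlapped, beside 12974 of 18886 over all genes, and the median of the 57 was 0.01. With groups apart 3 lay higher and 4 lower, beside 11.5% and 19.8% of all genes. The noncoding gene AT5G03285 had 1.99 and 8.26 FPKM in OE-SAUR41 roots and 1.7 and 0 FPKM in Col-0 roots, with a wide SE of 0.57 around 1.68, and the NAC factor gene anac044 had 4.16 and 8.0 FPKM in OE-SAUR41 roots, against 2.2 and 1.26 FPKM in Col-0 roots (1.34, limma adjusted p = 0.480).

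On the lower side stood AT2G14247, with 1.08 and 1.64 FPKM in OE-SAUR41 roots, against 4.1 and 6.77 FPKM in Col-0 roots (log2 fold change -1.43, limma adjusted p = 0.297). AT5G05250 had 5.44 and 5.76 FPKM in OE-SAUR41 roots, against 12.1 and 17.5 FPKM in Col-0 roots (-1.24, limma adjusted p = 0.243), and MLP28, a major latex protein-like gene, had 3.12 and 5.92 FPKM in OE-SAUR41 roots, against 9.81 and 13.8 FPKM in Col-0 roots (-1.24, limma adjusted p = 0.444). AT2G26267 had 0.951 and 1.09 FPKM in OE-SAUR41 roots, against 9.8 and 2.42 FPKM in Col-0 roots (-1.59, SE 0.46, limma adjusted p = 0.737), most of it from Col-0 root 1. The groups lay apart for each of these genes and none passed.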

How the data were processed

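Total RNA of OE-SAUR41 and Col-0 roots was sequenced in 2 libraries each, and the authors deposited FPKM values per gene, 1 file per library, per the file headers. The build was TAIR10, per the submitters' processing notes; aligner, quantifier, strand setting and treatment of multiply matching reads were not given in the sources used here. Files list no value of 0, so an unlisted gene was taken as 0. Depth is unknown, so no counting interval is given. Of 25404 genes listed in any of the 8 libraries, 25139 matched RefSeq TAIR10.1 locus tags, which gave names; 3635 genes share a locus and are uncertain. AT2G01010 and AT3G41768, unlisted in 1 root library of a group and above 100 FPKM in the other, were left out after their values were seen.

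Genes with at least 1 FPKM in 2 or more root libraries were fitted on log2(FPKM + 1), with 2 group means from the 4 root libraries alone (limma 3.58.1 in R 4.3.3, eBayes with trend, 2 residual and 6.54 prior degrees of freedom). Calls had a Benjamini-Hochberg adjusted p under 0.05. The difference between tissues was fitted on all 8 libraries. The scripts were tested on simulated data. With 2 libraries against 2, exact permutation cannot reach a p below 0.333 and was not used. The members and the 35 gene lists were chosen with earlier results of these data known. The rule for naming took all called genes and the 12 largest rises and falls among genes whose groups did not overlap and whose higher mean reached 5 FPKM. It also took up to 4 members of each list whose groups did not overlap, and the iron and SAUR41 subfamily lists member by member. Not every list member taken by the rule is named in the text. A few other members are named as examples and were picked after their values were seen. Alternatives were no filter or one at 5 FPKM, pseudocounts of 0.1 and 5, TMM scaling (factors on FPKM), quantile normalization, no trend, a robust prior, all 8 libraries, a replicate block, a gene span correction (lowess, span 0.3) and leaving out each library; the library left alone in its group was then taken to vary like those of the other group. Values of shoot libraries, TMM-scaled overlap counts and gene families named by symbol were added after seeing the data. Tables and plots were made with Python and matplotlib.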

Additional observations from a re-analysis of the deposited data

How the results depend on the processing

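The 8 root calls became 8 with a pseudocount of 0.1 or a filter at 5 FPKM, 7 with a pseudocount of 5, 6 with TMM scaling, 2 with the gene span correction, 17 with a robust prior, and 1 with no filter, quantile normalization, no trend or all 8 libraries. The 1 call was SAUR41, so the share of higher calls was then 100% against 25%. Leaving out 1 library gave 16 to 110 calls. No label states that the replicate numbers pair the libraries. The deviations of OE-SAUR41 root 1 and Col-0 root 1 from their group means correlated at 0.073. With 2 libraries per group the other pair has the same value by construction, so it cannot show whether libraries were paired. The fit with the replicate number as a block gave 158 calls (68 higher, 90 lower), the 8 genes included. SAUR41 was called in all 15 alternatives, with log2 fold changes of 9.12 to 10.2. Beside it, the gene span correction kept IRT1 alone. IRT1, bHLH39, AT3G01345, AT5G38910 and IPSP kept their calls with TMM scaling and with both pseudocounts. NAS4 lost its call with TMM scaling, and IMA2 with TMM scaling and with a pseudocount of 5. The block and the fits with a library left out have fewer residual degrees of freedom and are not counted for these genes. Each gene kept its direction in every alternative. The highest limma adjusted p was 0.265 for IRT1 and 1.00 for IMA2. The cause of the lost calls was not tested. Of 152 other named genes, 31 were called in at least 1 alternative, most often with the block or a library left out, and 16 changed sign in at least 1. The medians of 16 of 34 lists changed sign in at least 1 alternative. For the difference between tissues, the count of 0 stayed 0 under the pseudocounts, the filter, quantile normalization and the block, and ranged from 0 to 6888 when 1 library was left out: 6888 without Col-0 shoot 2, whose partner then stood alone, and 1 without Col-0 shoot 1. The 2 libraries per group and the unknown depth limit every comparison here, and differences between replicates followed gene span, with a Spearman rho of 0.317 in OE-SAUR41 roots and -0.379 in Col-0 roots across 15950 genes. The root log2 fold changes had a rho of 0.163 with span.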

Other observations

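Amino acid export genes were chosen with their values known. GLUTAMINE DUMPER genes promote amino acid export. GDU4 had 44.8 and 58.8 FPKM in OE-SAUR41 roots, against 93.1 and 91.9 FPKM in Col-0 roots (log2 fold change -0.84, limma adjusted p = 0.297), and GDU1 had 12.9 and 19.5 FPKM in OE-SAUR41 roots, against 28.0 and 35.4 FPKM in Col-0 roots (-0.95, limma adjusted p = 0.417). Of 6 GDU genes tested, 5 had OE-SAUR41 libraries below Col-0 libraries, against 19.8% over all genes. Their median span was 761.5 bp, against 2414 bp for all genes tested, and the part of span was not tested. In the UMAMIT family of amino acid transporters, 16 of 33 tested genes lay below with groups apart and 3 above, beside 19.8% and 11.5% of all genes. UMAMIT17 had 19.9 and 21.8 FPKM in OE-SAUR41 roots, against 41.5 and 50.4 FPKM in Col-0 roots (-1.10, limma adjusted p = 0.115), and UMAMIT11 had 57.7 and 67.3 FPKM in OE-SAUR41 roots, against 101 and 108 FPKM in Col-0 roots (-0.74, limma adjusted p = 0.297). No member of either family passed.

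SAUR genes outside the SAUR41 subfamily had mostly negative values, 21 of 29 tested, with 8 positive. Their median was -0.35, against -0.03 for all genes tested. These genes are short, with a median span of 738 bp against 2414 bp for all genes tested. Root log2 fold changes rose with gene span (Spearman rho 0.163), and the part of span in the SAUR values was not tested. With groups apart 15 lay lower and 5 higher, beside 19.8% and 11.5% of all genes. TMM scaling left these counts at 15 and 5, beside 16.8% and 16.1% of all genes. None of them passed. SAUR59 had 13.6 and 18.4 FPKM in OE-SAUR41 roots, against 30.1 and 29.6 FPKM in Col-0 roots (log2 fold change -0.87, limma adjusted p = 0.304), and SAUR49 had 12.1 and 13.3 FPKM in OE-SAUR41 roots, against 23.2 and 22.3 FPKM in Col-0 roots (-0.80, limma adjusted p = 0.297). SAUR9 had 1.21 and 1.44 FPKM in OE-SAUR41 roots, against 0.239 and 0.182 FPKM in Col-0 roots (0.94, limma adjusted p = 0.565). SAUR9 passed the filter through its OE-SAUR41 libraries alone. Beside MRN1 (1.52) on chromosome 5, CYP705A12 had 0.50 and CYP71A16 had 0.45, both P450 genes of the marneral cluster. AT5G42610, on the other side of MRN1, went the opposite way, with -1.40.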
